A study of Mus musculus with 12 samples.

Results

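The Ube2 genes encode the ubiquitin-conjugating enzymes, or E2s, and the results below follow their polysome-bound mRNA in mouse oocytes with and without amphiregulin. Members were all genes whose symbol starts with Ube2 among the RefSeq-named probe sets of the array, with the brightest probe set taken for each gene. This gave 31 of the 16579 genes measured. Of these, 29 encode an E2 or an inactive E2-like protein. The other 2 are not E2s. Ube2cbp, also called Ube3d, is a ubiquitin ligase gene. Ube2d-ps, named as a pseudogene, is annotated in RefSeq as a long non-coding RNA. The RefSeq table held 42 Ube2 symbols, and the 11 without a probe set, among them Ube2e1, Ube2e3, Ube2j2 and Ube2v1, were not analysed here.

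Ubiquitin reaches its targets through a chain of enzymes: an E1 activates it, an E2 carries it, and an E3 ligase brings the E2 to the target. Some E2s carry a ubiquitin-like protein such as SUMO or NEDD8 in its place. In oocytes this machinery is best known for the anaphase-promoting complex (APC/C), an E3 whose removal of cyclin B1 and securin lets the chromosomes separate in meiosis.

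The study asked whether the translational program of oocytes differs without amphiregulin, an EGF-like ligand of the follicle known to be released after the ovulatory hormone surge. The arrays formed 4 groups of 3: knockout MII and knockout GV oocytes, from mice lacking Areg, and wild-type MII and wild-type GV oocytes. All groups carried the strain label C57BL/6J 129Sv, and all mice had received PMSG, a gonadotropin that makes follicles grow, and hCG, which stands in for the surge, 48 h later. GV oocytes, still in prophase arrest, were taken at 0 h and MII oocytes, which are mature eggs, at 14 h after hCG. The sources used here do not give the type of Areg allele, the age of the mice or the number of mice or oocytes per sample. The arrays of a group were titled biological replicates, and how they were drawn is not stated, so a p-value covers only the scatter among these samples.

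Values are log2 intensities, so 1 unit is a 2-fold step, and no test sets a level against that of another probe set. Where levels of different genes stand side by side, as for the markers here, they are description only. The 10 oocyte markers, among them Gdf9, Bmp15 and Zp3, had a median level of 12.08 in knockout MII, 13.35 in knockout GV, 12.15 in wild-type MII and 13.52 in wild-type GV arrays. Their gene means ranged between 5.90 and 14.20. The lowest was that of Figla, at 5.90 in knockout MII, 11.46 in knockout GV, 6.05 in wild-type MII and 10.90 in wild-type GV. The 17 cumulus and granulosa cell markers had medians of 4.88, 4.58, 4.76 and 4.50 in the same order of groups. Their gene means ranged between 2.16 and 12.45, the highest being that of Serpine2, followed by Cyp19a1 with group means between 8.45 and 10.59. Areg itself lay at 2.68, 2.49, 2.72 and 2.36, so its probe set could not check the genotype labels. The interquartile range of the arrays was 3.59 ± 0.38 in knockout MII against 4.59 ± 0.16 in knockout GV, and 3.81 ± 0.33 in wild-type MII against 4.44 ± 0.35 in wild-type GV (SD, n = 3). The 3′ minus 5′ signal of the Actb control averaged -0.77 ± 0.37 in knockout MII against 0.05 ± 0.56 in knockout GV and -1.16 ± 0.18 in wild-type MII against 0.36 ± 0.81 in wild-type GV. For Gapdh it was 2.70 ± 0.61 in knockout MII against 2.48 ± 0.75 in knockout GV, and 3.23 ± 0.48 in wild-type MII against 2.00 ± 0.31 in wild-type GV. The mean Actb value was lower at MII in both genotypes, with ranges that overlapped in the knockout, and the Gapdh difference was within the spread in the knockout. The part of the 3′ to 5′ signals in the results was not tested.

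Most of the Ube2 mRNAs that changed with maturation fell. In the knockout, 11 of the 31 members passed the test between MII and GV (limma, Benjamini-Hochberg adjusted p under 0.05 over all genes), 2 higher and 9 lower at MII. That is 35.5%, against 28.2% of all genes, of which 13.0% were higher and 15.2% lower. In wild type 6 members passed, 0 higher and 6 lower, which is 19.4% against 21.6% of all genes (8.97% higher and 12.6% lower). The share of members called was thus near that of all genes in both genotypes. The members that fell in both, among them Ube2a, Ube2e2, Ube2m and Ube2s, were 55.6% of the members that fell in the knockout and 83.3% of those that fell in wild type. In all, 12 members were called in at least 1 genotype and 19 in neither.

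The median stage change of the members was -0.58 in the knockout, against 0.30 for all genes there, and -0.36 in wild type, against 0.20 for all genes. When array spread (the interquartile range) entered the model as a covariate, the medians were 0.01 for members against -0.05 for all genes in the knockout, and -0.10 against -0.05 in wild type. With that covariate 4 members were called in the knockout, 2 higher and 2 lower, and 7 in wild type, 3 higher and 4 lower. Of all 16579 genes, 951 were then higher and 845 lower in the knockout, and 1599 were higher and 1430 lower in wild type. After a further quantile normalization 3 members were higher and 6 lower in the knockout, and 2 were higher and 5 lower in wild type. Over all genes 2501 were higher and 1901 lower in the knockout, and 2016 were higher and 1720 lower in wild type. The medians were then -0.13 for members against 0.17 for all genes in the knockout, and -0.07 against 0.12 in wild type. More members were thus lower than higher after this rescaling as well, while the spread covariate, which shares its information with stage, left as many higher as lower in the knockout. Fewer oocytes and less RNA per oocyte cannot be told apart here, nor can ribosome loading and the amount of a transcript.

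**Figure D1:**
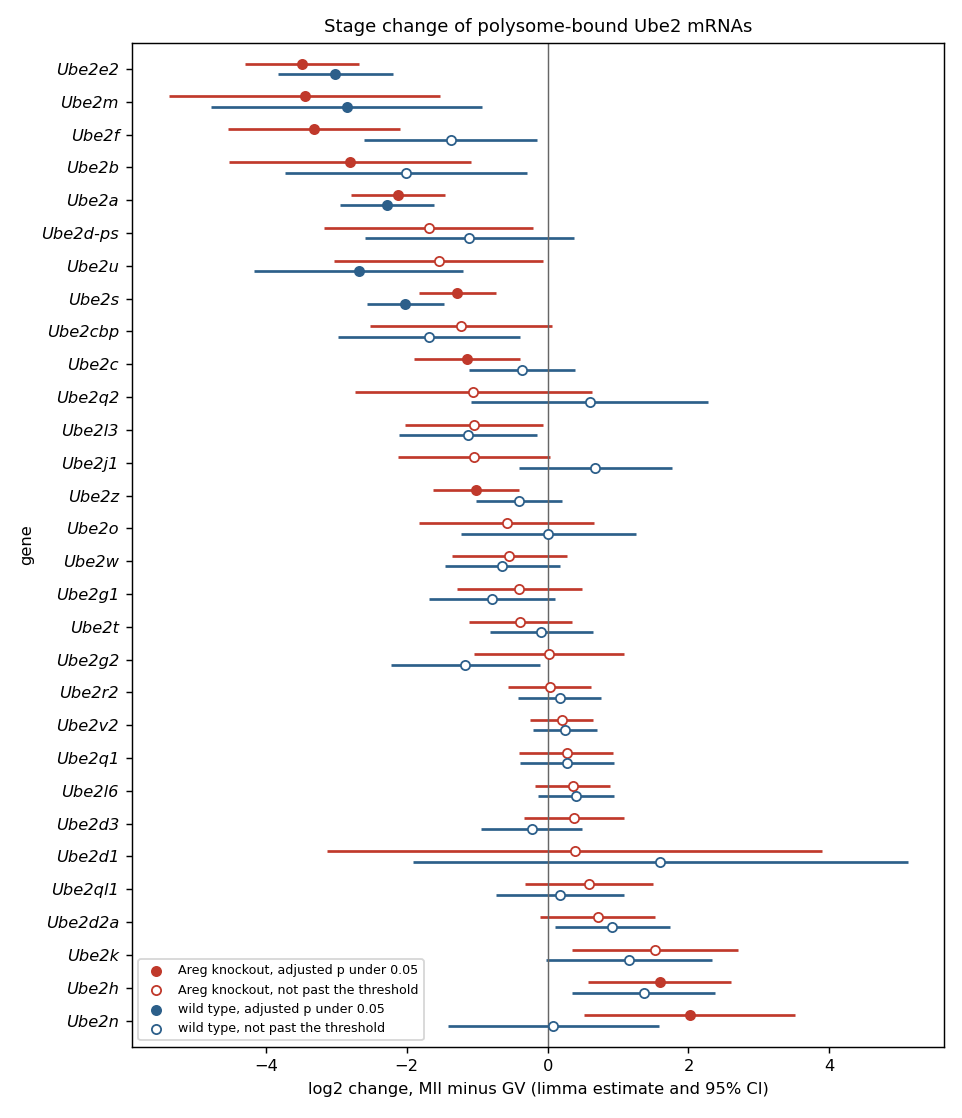
Stage change (log2, MII minus GV, horizontal axis) of the Ube2 genes described here in the Areg knockout (red) and in wild type (blue), with limma estimates as points and 95% confidence intervals as bars. Filled points passed an adjusted p under 0.05, and most of them lie left of 0.

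Ube2c and Ube2s are the E2s of the APC/C: Ube2c starts ubiquitin chains on its substrates and Ube2s lengthens them. Ube2s fell in both genotypes. Its level was 12.73, 12.30 and 12.80 on the knockout MII arrays, against 14.06, 13.78 and 13.83 on the knockout GV arrays. Wild-type oocytes had 11.73, 11.61 and 12.32 at MII, against 13.97, 14.02 and 13.72 at GV. The stages did not overlap in either genotype. The stage change was -1.28 ± 0.25 (SE) on the log2 scale in the knockout, or 2.42-fold (limma adjusted p = 0.0040), and -2.02 ± 0.25 in wild type, or 4.05-fold (limma adjusted p = 0.00029). The wild-type call held under all 20 alternative settings, while the knockout call was lost with array spread in the model (-0.77, limma adjusted p = 0.22).

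Ube2c fell in the knockout by 1.14 ± 0.34, or 2.21-fold (limma adjusted p = 0.030). Its level there was 11.67, 10.63 and 11.10 at MII, against 11.76, 12.39 and 12.68 at GV, so that the closest arrays of the groups were 0.09 apart. Its wild-type levels were 11.40, 11.96 and 11.70 at MII, against 11.89, 11.80 and 12.46 at GV, and the groups overlapped (-0.36 ± 0.34, limma adjusted p = 0.48). The knockout call was lost without any 1 of knockout GV replicates 2 and 3 and knockout MII replicates 2 and 3 (-1.12 to -0.89, limma adjusted p between 0.073 and 0.10). It was also lost after further quantile normalization, with the compared groups alone and with the spread covariate (limma adjusted p between 0.068 and 0.19).

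The stretches upstream of 4 members called between stages are shown. Ube2s and Ube2a were called lower at MII in both genotypes. Ube2c (lower) and Ube2h (higher) were called in the knockout only. Whether the motifs bear on the stage changes of polysome-bound mRNA was not tested. Each gives the 150 bases before the RefSeq start of the gene in GRCm38.p6, read 5′ to 3′ on the strand of the gene, with capitals marking matches on either strand. The motifs searched were the box named after its letters CCAAT, the TATA box as TATAAA, the GC box as GGGCGG, the cell cycle homology element as TTTGAA, and the cAMP response element as TGACGTCA. Ube2c lies at chr2:164769779-164769928 (plus strand), Ube2s at chr7:4812341-4812490 (minus), Ube2a at chrX:36874145-36874294 (plus) and Ube2h at chr6:30304540-30304689 (minus).
Ube2c: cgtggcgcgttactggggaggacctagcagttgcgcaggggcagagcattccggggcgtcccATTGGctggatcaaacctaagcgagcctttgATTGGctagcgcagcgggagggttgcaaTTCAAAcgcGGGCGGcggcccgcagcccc
Ube2s: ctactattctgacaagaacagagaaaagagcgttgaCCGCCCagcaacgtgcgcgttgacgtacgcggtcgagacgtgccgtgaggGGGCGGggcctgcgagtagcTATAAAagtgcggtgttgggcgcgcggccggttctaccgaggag
Ube2a: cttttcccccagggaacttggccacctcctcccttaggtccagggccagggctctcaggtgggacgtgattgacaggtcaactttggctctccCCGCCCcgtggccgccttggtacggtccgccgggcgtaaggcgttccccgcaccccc
Ube2h: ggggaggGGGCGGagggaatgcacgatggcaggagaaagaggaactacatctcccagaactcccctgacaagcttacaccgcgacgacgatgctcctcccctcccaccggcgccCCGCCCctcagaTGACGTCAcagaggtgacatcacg
In Ube2c the capitals are a pair of CCAAT boxes in reverse orientation, a reverse TTTGAA and a GGGCGG box. Ube2s holds a TATAAA box and GGGCGG boxes on both strands, and Ube2h holds the 1 TGACGTCA match found among members.

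Over the 250 bases before an annotated start, which could be read for 25 members, 16 members held GGGCGG (64.0%, against 33.0% of 27025 genes). The 27025 genes were all those with a promoter sequence, whether measured here or not. They were not matched to the members by base composition, on which a GGGCGG match depends. The windows of the members held between 50.8% and 80.4% G and C. The start nearest to the RefSeq start of each gene was used. It lay 3359 bases away for Ube2b, 614 for Ube2f, 513 for Ube2e2, 122 for Ube2d1 and at most 60 for the others. CCAAT was present in 6 members (24.0% against 34.5%), TTTGAA in 3 (against 16.3% of the genes), TATAAA in 2 (8.0% against 13.0%) and TGACGTCA in 1 (4.0% against 1.6%). Ube2c had 6 CCAAT matches in that window, a number that counts overlapping matches on opposite strands separately. These are matches of letters alone and not binding sites.

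Ube2a and Ube2b encode near-identical proteins and are homologues of yeast RAD6, which works in DNA damage tolerance and histone ubiquitination. Mouse females without Ube2a are infertile. Ube2a fell in both genotypes. It had 8.47, 8.31 and 7.69 on knockout MII arrays, against 10.50, 10.51 and 9.82 on knockout GV arrays. The wild-type arrays gave 8.29, 7.57 and 8.12 at MII, against 10.46, 10.24 and 10.11 at GV. The stages lay well apart in both genotypes. The stage change was -2.12 ± 0.30 in the knockout, or 4.36-fold (limma adjusted p = 0.00059), and -2.28 ± 0.30 in wild type, or 4.85-fold (limma adjusted p = 0.00041). The wild-type call held under all 20 alternatives, and the knockout call was lost only with the spread covariate (-1.30, limma adjusted p = 0.064).

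Ube2b had 6.44, 7.36 and 4.65 at MII in the knockout, against 9.56, 9.10 and 8.19 at GV. Wild-type oocytes had 8.28, 5.28 and 6.89 at MII, against 9.07, 8.99 and 8.41 at GV. MII lay below GV in both genotypes, with a wide spread among the MII arrays. The fall passed the test in the knockout (-2.80 ± 0.78, limma adjusted p = 0.023) and the wild-type difference did not (-2.01 ± 0.78, limma adjusted p = 0.094). The knockout call was lost without knockout GV replicate 1 (-2.49, limma adjusted p = 0.083), knockout GV replicate 2 (-2.73, 0.064) or knockout MII replicate 3 (-2.05, 0.081). It was also lost after quantile normalization (-2.38, limma adjusted p = 0.076) and with the spread covariate (-0.95, 0.72). Ube2t, the E2 of the Fanconi anaemia pathway, was not called (-0.39 ± 0.33 in knockout oocytes, -0.09 ± 0.33 in wild-type oocytes).

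The Ube2d and Ube2e families work with many RING ligases. Among their 4 measured genes Ube2e2 fell in both genotypes, and its fall was the largest of the family in each. Its level was 4.24, 4.70 and 4.71 on knockout MII arrays, against 7.71, 7.96 and 8.43 on knockout GV arrays. Its wild-type levels were 3.78, 5.30 and 5.07 at MII, against 7.80, 7.74 and 7.66 at GV. All GV arrays lay more than 2 units above all MII arrays. The stage change was -3.48 ± 0.37 in the knockout, or 11.2-fold (limma adjusted p = 0.00012), and -3.02 ± 0.37 in wild type, or 8.10-fold (limma adjusted p = 0.00027). Both calls held under all 20 alternatives.

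The Ube2d genes, which feed ubiquitin to a broad range of ligases, gave no call. Ube2d1 had 9.04, 3.53 and 9.28 at MII in the knockout, against 6.36, 8.38 and 5.95 at GV. The wild-type arrays gave 9.79, 7.28 and 7.65 at MII, against 7.78, 8.46 and 3.69 at GV. No member scattered more between replicates, and its 95% interval spanned -3.13 to 3.90 in the knockout and -1.91 to 5.11 in wild type. Ube2d3 had 11.53, 11.93 and 11.60 at MII in the knockout, against 11.64, 11.40 and 10.91 at GV. Wild-type oocytes had 11.62, 10.55 and 11.37 at MII, against 11.66, 11.54 and 11.00 at GV, and the stages overlapped in both genotypes (0.37 ± 0.32 in knockout oocytes, -0.22 ± 0.32 in wild-type oocytes). Ube2d2a changed by 0.71 ± 0.37 in knockout oocytes and by 0.92 ± 0.37 in wild-type oocytes, with limma adjusted p of 0.16 and 0.10.

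Ube2m and Ube2f are the E2s of NEDD8, the modifier that switches on cullin-RING ligases. Ube2m had 4.13, 6.62 and 6.37 at MII in the knockout, against 9.40, 9.13 and 8.95 at GV. The wild-type arrays gave 4.86, 8.31 and 5.25 at MII, against 9.25, 9.59 and 8.15 at GV. Wild-type MII replicate 2 reached into the range of the GV arrays, and the other MII arrays lay lower. The stage change was -3.45 ± 0.88 in the knockout (limma adjusted p = 0.015) and -2.85 ± 0.88 in wild type (limma adjusted p = 0.039). The knockout call was lost without knockout GV replicate 1 (-3.33, limma adjusted p = 0.050, just over the threshold). The wild-type call was lost without any 1 of 7 arrays, namely wild-type GV replicates 1 and 2, wild-type MII replicates 1 and 3 and each knockout GV replicate (-2.85 to -2.21, limma adjusted p between 0.053 and 0.13). It was lost as well after quantile normalization and with the compared groups alone (limma adjusted p = 0.092 and 0.074).

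Ube2f had 4.64, 4.93 and 4.46 at MII in the knockout, against 8.80, 7.74 and 7.45 at GV. Wild-type oocytes had 6.72, 8.06 and 6.72 at MII, against 9.43, 8.83 and 7.36 at GV. The knockout stages lay far apart and the wild-type stages overlapped. The change of -3.32 ± 0.56 in the knockout, or 9.99-fold, passed the test (limma adjusted p = 0.0016), and the wild-type difference did not (-1.37 ± 0.56, limma adjusted p = 0.11). With the spread covariate the knockout call was lost (-2.81, limma adjusted p = 0.11). Ube2z, the E2 that works with the activating enzyme Uba6, fell in the knockout by 1.02 ± 0.28 (limma adjusted p = 0.020) and changed by -0.40 ± 0.28 in wild type (limma adjusted p = 0.34). Its call was lost without knockout GV replicate 2 (-0.87, limma adjusted p = 0.076), without knockout MII replicate 2 (-0.95, 0.060), after quantile normalization (-0.46, 0.19) and with the spread covariate (-0.54, 0.50). Ube2l6, the E2 of ISG15, had group means between 2.49 and 3.05 and was not called.

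The 2 members that rose, Ube2h and Ube2n, did so in the knockout. Ube2h is the E2 of the CTLH ligase, known in flies and mice from its role around the egg-to-embryo transition and in red cells. It had 10.66, 10.25 and 9.53 at MII in the knockout, against 8.38, 9.45 and 7.86 at GV. Its wild-type levels were 10.03, 9.50 and 9.99 at MII, against 9.25, 8.08 and 8.10 at GV. MII lay above GV in both genotypes without overlap. The rise was 1.59 ± 0.46 in the knockout (limma adjusted p = 0.028), and the wild-type change was 1.37 ± 0.46 (limma adjusted p = 0.058), past the threshold under 8 of 20 alternatives. The knockout call was lost without any 1 of knockout GV replicates 1 and 3 and knockout MII replicates 1 and 2 (1.24 to 1.54, limma adjusted p between 0.069 and 0.090) and with the compared groups alone (limma adjusted p = 0.057).

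Ube2n builds ubiquitin chains linked through lysine 63, used in signalling and DNA repair, together with the inactive partners Ube2v1 and Ube2v2. It had 7.46, 7.68 and 5.99 at MII in the knockout, against 6.86, 3.88 and 4.33 at GV. The wild-type arrays gave 4.58, 4.94 and 5.04 at MII, against 4.75, 4.52 and 5.04 at GV. The knockout stages overlapped through knockout GV replicate 1, and the wild-type arrays all lay close together. The rise of 2.02 ± 0.68 in the knockout (limma adjusted p = 0.047) held in 7 of 19 alternatives, a filter on dim genes having left Ube2n out, and the wild-type change was 0.08 ± 0.68 (limma adjusted p = 0.94). The call was lost without any 1 of 10 arrays, all but knockout GV replicate 1 and knockout MII replicate 3 (1.45 to 2.02, limma adjusted p between 0.055 and 0.15), with the compared groups alone (0.12) and with the spread covariate (0.24). Ube2v2 had 2.87, 2.73 and 3.22 at MII in the knockout, against 2.84, 2.71 and 2.67 at GV. Wild-type oocytes had 2.80, 2.86 and 2.63 at MII, against 2.49, 2.62 and 2.45 at GV, and it was not called (0.20 ± 0.20 in knockout oocytes, 0.25 ± 0.20 in wild-type oocytes).

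**Figure D2:**
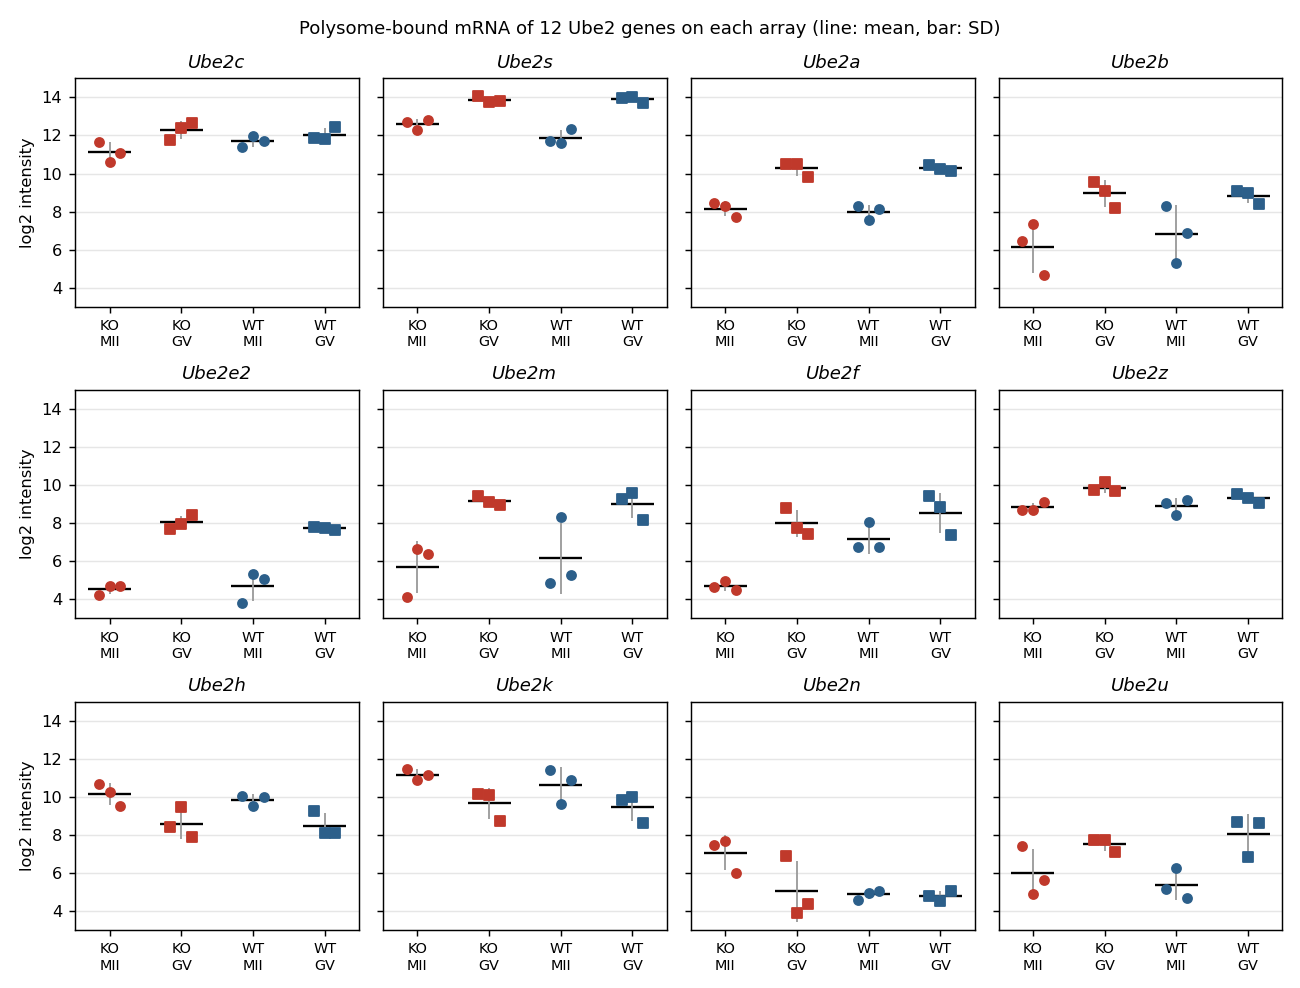
Level (log2 intensity, vertical axis) of 12 Ube2 genes on each of the 12 arrays, by group on the horizontal axis (knockout MII, knockout GV, wild-type MII, wild-type GV), with points as arrays, black lines as means and grey bars as SD. Ube2e2, Ube2a and Ube2s lie lower at MII in both genotypes, while Ube2f and Ube2n at MII differ in position between the genotypes.

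Of the other E2s described here only Ube2u was called. It is a little studied member, and it had 7.38, 4.89 and 5.63 at MII in the knockout, against 7.72, 7.73 and 7.07 at GV. Its wild-type levels were 5.15, 6.23 and 4.69 at MII, against 8.65, 6.83 and 8.62 at GV. The wild-type stages did not overlap and the knockout stages did. The change of -2.68 ± 0.67 in wild type passed the test (limma adjusted p = 0.015), and the knockout difference of -1.54 ± 0.67 did not (limma adjusted p = 0.10). In wild type the call was lost when GV replicate 1, GV replicate 3 or MII replicate 3 was left out (-2.39 to -2.35, limma adjusted p between 0.054 and 0.063) and with the spread covariate (-2.54, 0.098).

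Ube2k, which builds degradation signals on its own, came nearest to the threshold from above. It had a change of 1.52 ± 0.54 in the knockout (limma adjusted p = 0.054, under the threshold in 10 of 20 alternatives) and of 1.15 ± 0.54 in wild type (limma adjusted p = 0.16). The next nearest were Ube2h in wild type, Ube2cbp in wild type (-1.68, limma adjusted p = 0.066) and Ube2d-ps in the knockout (-1.68, limma adjusted p = 0.080). Ube2l3, the E2 of HECT and RBR ligases, changed by -1.05 ± 0.45 in knockout oocytes and by -1.13 ± 0.45 in wild-type oocytes (limma adjusted p = 0.094 and 0.099). Ube2w, which marks protein amino termini, changed by -0.55 ± 0.37 in knockout oocytes and by -0.65 ± 0.37 in wild-type oocytes. Ube2o, an E2 and E3 in 1 protein, changed by -0.58 ± 0.56 in knockout and 0.01 ± 0.56 in wild-type oocytes, and Ube2ql1 by 0.59 ± 0.41 in knockout and 0.17 ± 0.41 in wild-type oocytes.

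The E2s of protein quality control at the endoplasmic reticulum and their relatives gave no call in 4 measured genes. Ube2g1 had 11.72, 11.05 and 10.57 at MII in the knockout, against 12, 11.49 and 11.03 at GV, and in wild type 11.57, 10.22 and 10.52 at MII, against 11.70, 11.62 and 11.36 at GV. Ube2g2 had 10.35, 10.29 and 11.21 at MII in the knockout, against 10.75, 10.54 and 10.50 at GV, and in wild type 10.68, 8.41 and 9.96 at MII, against 11.02, 10.83 and 10.70 at GV. Ube2g1 overlapped between stages in both genotypes, and Ube2g2 only in the knockout. Ube2g2 is the E2 of ligases that remove misfolded proteins, and its change was 0.02 ± 0.48 in knockout oocytes and -1.17 ± 0.48 in wild-type oocytes (limma adjusted p = 0.98 and 0.11). Ube2j1, its membrane-anchored counterpart, had 6.60, 5.66 and 5.59 at MII in the knockout, against 7.07, 7.47 and 6.44 at GV. The wild-type arrays gave 6.34, 6.63 and 7.83 at MII, against 6.08, 7.06 and 5.64 at GV. Its changes pointed in opposite directions (-1.04 ± 0.49 in knockout oocytes, 0.67 ± 0.49 in wild-type oocytes) and neither passed the test. Ube2r2, a relative of Cdc34 that serves SCF ligases, changed by 0.03 ± 0.27 in knockout and 0.17 ± 0.27 in wild-type oocytes.

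Ube2q1 and Ube2q2 belong to a family with a long amino-terminal extension. Ube2q1 had 7.83, 8.03 and 8.37 at MII in the knockout, against 8.32, 7.44 and 7.68 at GV, and in wild type 7.38, 8.0 and 8.26 at MII, against 7.58, 7.52 and 7.72 at GV. Ube2q2 had 4.56, 5.51 and 3.77 at MII in the knockout, against 6.50, 5.16 and 5.34 at GV, and in wild type 8.46, 5.55 and 5.46 at MII, against 6.61, 5.60 and 5.46 at GV. The stages overlapped for both genes in both genotypes, and wild-type MII replicate 1 stood above the others for Ube2q2. Ube2q1 changed by 0.27 ± 0.30 in either genotype. The change of Ube2q2 was -1.06 ± 0.77 in knockout oocytes and 0.60 ± 0.77 in wild-type oocytes.

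Across the 31 members the stage changes of the genotypes had Pearson r = 0.81, as a description over genes measured on the same arrays, and 26 members changed in the same direction. Stage groups did not overlap for 15 members in the knockout (3 higher and 12 lower), against 51.6% of all genes (31.7% higher and 19.9% lower). In wild type this was so for 11 members (3 higher and 8 lower), against 39.2% of all genes (21.4% higher and 17.8% lower). Ube2m in wild type and Ube2n in the knockout were called although their stages overlapped.

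Between the genotypes no member passed the test. At MII, limma called 0 of the 31 members at an adjusted p under 0.05, against 0.0603% of all genes, and 4 had an unadjusted p under 0.05, against 6.18% of all genes. At GV limma called 0 members, against 0.0% of all genes, and 0 had an unadjusted p under 0.05, against 3.55% of all genes. The test of whether the stage change itself differed between knockout and wild type called 0 members by limma, against 0.0% of all genes, and 2 had an unadjusted p under 0.05, against 4.66% of all genes. These counts were 0 under every alternative run.

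The 4 members at MII were Ube2f, Ube2n, Ube2q2 and Ube2s. Ube2f was lower in the knockout on all 3 arrays, at 4.67 ± 0.24 against 7.17 ± 0.77 in wild type (SD, n = 3), a difference of -2.49 with a 95% interval of -3.71 to -1.27 (limma adjusted p = 0.25). Ube2n was higher on all 3 arrays, at 7.04 ± 0.92 in the knockout against 4.86 ± 0.24 in wild type, a difference of 2.19 with an interval of 0.69 to 3.68 (limma adjusted p = 0.52). Ube2q2 differed by -1.88 (-3.56 to -0.19) and Ube2s by 0.73 (0.17 to 1.28), with overlapping groups and limma adjusted p of 0.72 and 0.60. None of these 4 differences passed the correction over all genes. For the interaction the members were Ube2f (-1.95, 95% interval -3.68 to -0.22) and Ube2j1 (-1.72, -3.25 to -0.18), both with a limma adjusted p of 0.94. For Ube2c, called in the knockout alone, the interaction was -0.78 with an interval of -1.84 to 0.28.

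Genotype groups did not overlap for 3 members at MII, Ube2f and Ube2l6 (lower in the knockout) and Ube2n (higher), against 8.3% of all genes (4.16% lower and 4.14% higher in the knockout). At GV they did not overlap for Ube2v2 and Ube2z, both higher in the knockout, against 9.84% of all genes (5.09% higher in the knockout). Ube2z was 9.86 ± 0.26 in knockout GV against 9.31 ± 0.25 in wild-type GV (SD, n = 3), a difference of 0.55 with an interval of -0.06 to 1.16. The intervals were wide for several members, such as Ube2d1 at MII (-4.47 to 2.56) and Ube2m at MII (-2.36 to 1.49), and they do not exclude differences of more than 2-fold either way. They were narrower for Ube2v2 at MII (-0.27 to 0.63) and Ube2r2 at MII (-0.66 to 0.52). Group means of Ube2v2 lay between 2.52 and 2.94 and those of Ube2l6 between 2.49 and 3.05. Both are near the low end of the scale, where the lowest value on any array was 1.33. A narrow interval or separate groups there say little about the mRNA.

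**Figure D3:**
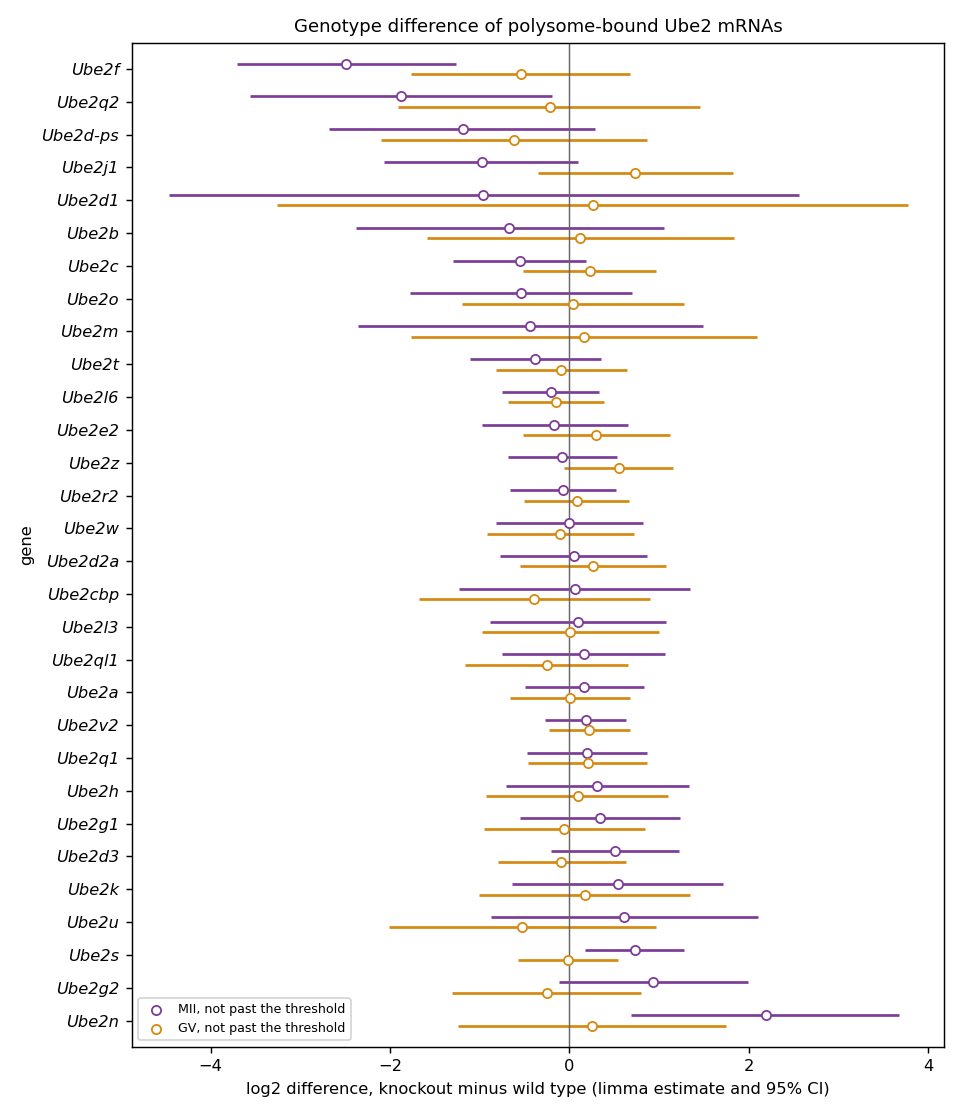
Genotype difference (log2, knockout minus wild type, horizontal axis) of the Ube2 genes described here at MII (purple) and GV (orange), with limma estimates as points and 95% confidence intervals as bars. All points are open, since 0 members passed an adjusted p under 0.05, and at MII Ube2f lies farthest to the left and Ube2n farthest to the right.

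The list counts below can be read beside the shares of all genes called between stages. These were 28.2% in the knockout (13.0% higher and 15.2% lower) and 21.6% in wild type (8.97% higher and 12.6% lower). The enzymes upstream of the E2s changed with stage in both directions. Of 9 measured E1 genes, 1 was higher and 2 were lower at MII in the knockout (median change -0.39), and 1 was higher and 1 lower in wild type (median -0.08). Uba3, the catalytic subunit of the NEDD8 E1, rose by 3.03 ± 0.28 in knockout oocytes and by 2.64 ± 0.28 in wild-type oocytes (limma adjusted p = 5.7e-05 and 0.00011). Sae1, part of the SUMO E1, fell (-1.81 ± 0.48 in knockout oocytes, -1.70 ± 0.48 in wild-type oocytes, limma adjusted p = 0.018 and 0.026). The Sae1 call was lost without any 1 of 2 arrays in the knockout and of 5 in wild type, with limma adjusted p up to 0.087. It was also lost after quantile normalization (limma adjusted p = 0.082 in knockout and 0.084 in wild-type oocytes) and with the spread covariate, where the change was -0.64 in knockout oocytes (0.67) and -0.97 in wild-type oocytes (0.29).

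Uba6, the E1 that charges Ube2z, is named here after its values were seen, as the 1 pathway gene called between genotypes. It had 4.84, 4.14 and 4.04 on knockout MII arrays, against 7.18, 8.40 and 8.46 on wild-type MII arrays. At GV it had 4.69, 5.10 and 4.40 in the knockout, against 6.86, 7.13 and 6.97 in wild type. Every knockout array lay below every wild-type array at either stage. The difference was -3.68 ± 0.37 at MII (limma adjusted p = 0.012) and -2.26 ± 0.37 at GV (limma adjusted p = 0.23), and the MII call was lost with the compared groups alone (limma adjusted p = 0.61) and with the replicate block (0.055). In the RefSeq annotation Uba6 and Areg are both on chromosome 5.

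Of the 7 measured genes for ubiquitin and its relatives, 0 were higher and 3 lower at MII in either genotype, with medians of -0.19 in the knockout and -0.55 in wild type. Sumo3 fell (-4.06 ± 1.19 in knockout oocytes, -4.66 ± 1.19 in wild-type oocytes, limma adjusted p = 0.028 and 0.016). Nedd8 (-3.26 ± 0.30 in knockout and -3.33 ± 0.30 in wild-type oocytes) also fell. The calls of Nedd8 held under all 20 alternatives in both genotypes. Those of Sumo3 were lost without any 1 of 5 arrays in the knockout (limma adjusted p up to 0.083) and without wild-type GV replicate 1 in wild type (0.053). With the spread covariate Sumo3 changed by -0.10 in knockout oocytes (limma adjusted p = 0.98) and by -2.19 in wild-type oocytes (0.25), so that neither call was left. The knockout call was lost after quantile normalization too (0.052), and the wild-type call with the compared groups alone (0.061). Of 5 E2-type genes outside the Ube2 symbols, 0 were higher and 2 lower in the knockout and 0 higher and 1 lower in wild type. Atg10, the E2 of the autophagy protein Atg12, fell (-2.93 ± 0.80 in knockout oocytes, -3.49 ± 0.80 in wild-type oocytes, limma adjusted p = 0.021 and 0.0093). Its knockout call was lost without knockout GV replicate 1 or 2 (limma adjusted p between 0.063 and 0.067) and with the compared groups alone (0.063). In the fit with array spread Atg10 changed by -0.68 in knockout oocytes (limma adjusted p = 0.80) and by -2.09 in wild-type oocytes (0.15), and both calls were lost.

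The APC/C served by Ube2c and Ube2s was split. Of its 18 measured subunits and regulators, 5 were higher and 8 lower at MII in each genotype, with medians of -1.14 in the knockout and -1.18 in wild type. Anapc7 fell (-3.67 ± 0.37 in knockout oocytes, -5.55 ± 0.37 in wild-type oocytes). Anapc13 (-3.75 ± 0.67 in knockout and -4.05 ± 0.67 in wild-type oocytes), Anapc15 (-3.87 ± 0.52 in knockout and -2.86 ± 0.52 in wild-type oocytes) and Anapc5 (-2.03 ± 0.40 in knockout and -2.67 ± 0.40 in wild-type oocytes) fell as well. All 4 encode subunits of the complex, and their limma adjusted p lay at or under 0.0042. They are named because their changes were the largest among those called in wild type. The 5 genes called higher there rose by between 1.7 and 2.62. With the spread covariate the knockout calls of Anapc13 (-2.48, limma adjusted p = 0.21), Anapc15 (-2.65, 0.064) and Anapc5 (-1.40, 0.23) were lost, while Anapc7 kept both calls. Of 9 APC/C substrates, 2 were higher and 2 lower in the knockout, and 3 were higher and 0 lower in wild type (medians 0.41 and 0.25). Ccnb1, which encodes cyclin B1, rose by 2.09 ± 0.26 in knockout oocytes and by 2.14 ± 0.26 in wild-type oocytes (limma adjusted p = 0.00025 and 0.00023). Gmnn, which encodes the replication inhibitor geminin, rose by 1.34 ± 0.36 in knockout and 1.26 ± 0.36 in wild-type oocytes (limma adjusted p = 0.019 and 0.028). The call of Gmnn was lost without any 1 of 2 arrays in the knockout and of 4 in wild type (limma adjusted p up to 0.10), and in wild type with the compared groups alone (0.084). Ccna2 rose in wild type by 1.28 ± 0.41 (limma adjusted p = 0.048, lost without any 1 of 7 arrays and with the compared groups alone) and changed by 1.20 ± 0.41 in the knockout (0.050). With the spread covariate the rises were larger, at 2.48 in knockout and 1.97 in wild-type oocytes for Gmnn and 2.54 in knockout and 2.12 in wild-type oocytes for Ccna2 (limma adjusted p at or under 0.012).

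The NEDD8 pathway of Ube2m and Ube2f was split as well. Of its 18 measured genes, 5 were higher and 7 lower at MII in each genotype, with medians of -0.83 in the knockout and -0.24 in wild type. Nedd8 and Uba3, given above, moved in opposite directions. Cops3 fell (-3.83 ± 0.47 in knockout oocytes, -4.29 ± 0.47 in wild-type oocytes), as did Cops6 (-4.24 ± 0.53 in knockout and -2.61 ± 0.53 in wild-type oocytes), both encoding subunits of the COP9 signalosome that removes NEDD8 from cullins (limma adjusted p between 0.00014 and 0.0048). The wild-type call of Cops6 was lost with the spread covariate (-1.69, limma adjusted p = 0.075). Of 16 cullin-RING core genes, 5 were higher and 4 lower in the knockout, and 6 were higher and 4 lower in wild type (medians -0.02 and 0.12). Skp2, an F-box gene, rose by 2.80 ± 0.49 in knockout oocytes and by 3.24 ± 0.49 in wild-type oocytes, and the adaptor gene Eloc fell (-2.25 ± 0.31 in knockout and -2.43 ± 0.31 in wild-type oocytes). Rbx1, the RING subunit, fell (-1.47 ± 0.42 in knockout and -1.95 ± 0.42 in wild-type oocytes), and Cul5 rose by 0.91 ± 0.26 in knockout and 1.63 ± 0.26 in wild-type oocytes, with knockout calls that were lost without any 1 of 3 arrays for Rbx1 and of 4 for Cul5. With the spread covariate Rbx1 changed by -0.84 in knockout oocytes (limma adjusted p = 0.54) and by -1.55 in wild-type oocytes (0.077), and the knockout call of Cul5 was lost (1.22, 0.096). The knockout call of Rbx1 was also lost after quantile normalization (-0.83, 0.18), and that of Cul5 with the compared groups alone (0.071).

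The SUMO pathway list held 14 measured genes, of which 1 was higher and 3 were lower in the knockout and 1 higher and 2 lower in wild type (medians -0.25 and -0.30). Besides Sumo3 and Sae1, the SUMO protease gene Senp1 rose in wild type by 1.88 ± 0.32 (limma adjusted p = 0.0019) and changed by 0.73 ± 0.32 in the knockout (0.10). Of 12 genes of endoplasmic reticulum quality control, 1 was higher and 2 were lower in each genotype (medians 0.08 in the knockout and 0.22 in wild type). Derl3 fell (-3.81 ± 0.55 in knockout oocytes, -2.72 ± 0.55 in wild-type oocytes, limma adjusted p = 0.00069 and 0.0048). Both Derl3 calls were lost with the spread covariate (-2.98 in the knockout, limma adjusted p = 0.076, and -2.21 in wild type, 0.066). Derl1 fell in wild type (-1.30 ± 0.40, limma adjusted p = 0.040, lost without any 1 of 8 arrays and under 3 other alternatives) and the ligase gene Rnf139 rose there (1.29 ± 0.30, 0.0093), while in the knockout Derl1 changed by -0.81 ± 0.40 and Rnf139 by 0.49 ± 0.30, without a call.

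Of 13 ligase genes that work with Ube2a, Ube2b, Ube2t or Ube2n, 4 were higher and 3 lower at MII in each genotype, with medians of 0.10 in the knockout and 0.34 in wild type. Bard1, the partner of Brca1, rose by 2.28 ± 0.66 in knockout oocytes and by 3.38 ± 0.66 in wild-type oocytes (limma adjusted p = 0.028 and 0.0040). Rnf40, a ligase for histone H2B that works with the RAD6 enzymes, fell (-1.70 ± 0.53 in knockout and -2.29 ± 0.53 in wild-type oocytes, limma adjusted p = 0.037 and 0.010). Shprh rose by 1.63 ± 0.36 in knockout and 2.13 ± 0.36 in wild-type oocytes, and Fancl, the Fanconi ligase of Ube2t, fell (-1.57 ± 0.45 in knockout and -1.63 ± 0.45 in wild-type oocytes). In the knockout the call was lost without any 1 of 3 arrays for Bard1, 6 for Rnf40 and 5 for Fancl, and in wild type without any 1 of 3 for Fancl (limma adjusted p up to 0.10). With the spread covariate the knockout calls of Bard1 (2.67, limma adjusted p = 0.21), Rnf40 (-1.55, 0.38) and Shprh (2.05, 0.061) and the wild-type call of Rnf40 (-2.20, 0.072) were lost. After quantile normalization the knockout calls of Rnf40 (-1.16, limma adjusted p = 0.13) and Fancl (-1.0, 0.18) and the wild-type call of Fancl (-1.21, 0.13) were lost. Rnf40 in the knockout also lost its call with the replicate block (0.051), and Fancl in wild type with the compared groups alone (0.072).

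**Figure D4:**
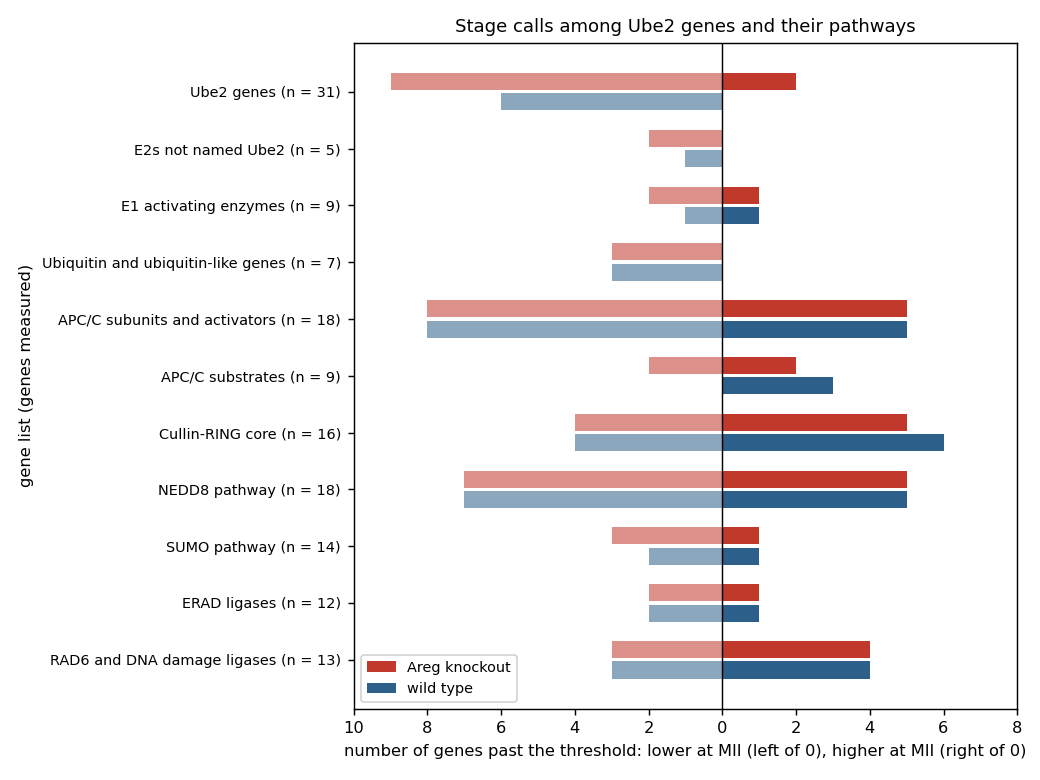
Number of genes called between MII and GV (horizontal axis, lower at MII left of 0 in pale bars, higher right of 0 in full colour) for the Ube2 genes and 10 lists of their partners, in the Areg knockout (red, upper bar) and wild type (blue, lower bar). The APC/C and NEDD8 lists hold calls on both sides, while the Ube2 genes lie mostly to the left. Of all genes, 28.2% were called in the knockout and 21.6% in wild type.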

How the data were processed

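Polysome-bound mRNA was measured on 12 Affymetrix mouse arrays in 4 groups of 3. The authors deposited log2 intensities; the submitters' processing notes name RMA. Per the labels' protocols, RNA was purified, amplified with a NuGEN kit and biotin labelled. The molecule label says total RNA while the source names and protocols say polysome-bound, and the description fields speak of embryos and were not used. RMA normalizes between arrays, so changes are relative to other transcripts. Of 23950 probe sets, 64 controls were left out, and 21230 of 23886 RefSeq names matched 1 symbol (GRCm38.p6), giving 16579 genes. The 2656 unmatched probe sets were not used. The probe sets of Ube2h, Ube2m and Ube2v2 held identical values within each gene.

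limma 3.58.1 (R 4.3.3) fitted all genes and arrays with 4 group means. Tests were two-sided, and p-values were adjusted over all genes. Per-array values are given for called members (at most 10 per genotype), Ube2c, Ube2s and paralogue pairs, and at most 4 called genes are named per pathway list. The fit was tested on simulated data. No array pair held identical values, the table holds no detection call, and precision is limited by having 3 arrays a group. A member and a partner gene are in the counts but are not reported here. Members, lists and tests were chosen with earlier results of these data known.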

Additional observations from a re-analysis of the deposited data

How the results depend on the processing

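The 5 counts of called members were recomputed under 20 alternatives (19 for the interaction, which the compared groups alone cannot give). In the knockout the stage count of 11 was 4 with array spread in the model, and between 7 and 11 without 1 array, lowest without knockout GV replicate 2 or knockout MII replicate 2. The calls over all 16579 genes moved as well, from 4672 to 1796 with array spread. They were 3029 without knockout GV replicate 2 and 3545 without knockout MII replicate 2. In wild type the count of 6 was 10 with array weights, and between 3 and 8 without 1 array, lowest without wild-type MII replicate 3. Calls over all genes there were 3574 in the main fit, 4879 with array weights and 3049 without wild-type MII replicate 3. The spread differs between stages, so that covariate shares its information with stage. With the replicate block the counts were 13 in the knockout, 9 in wild type and 0 for both genotype comparisons and the interaction. The block gave 4967 stage calls over all genes in the knockout and 3749 in wild type. Whether the replicate numbers pair the samples is not stated, and the main fit did not use them. Same-numbered arrays had correlations of their deviations between -0.122 and 0.258, over 0.1 in 7 of 12 pairs. Differently numbered arrays had correlations between -0.27 and 0.233, and those over 0.1 were 0.233, 0.169, 0.119 and 0.116. Correlations over 0.1 were thus more common among same-numbered arrays. Whether a shared replicate effect lies behind this was not tested. Without 1 array the genotype and interaction counts stayed at 0. Of the single-gene results for members, 617 kept their side of the threshold, 57 lost it, 39 gained it and 0 reversed, and for the named pathway genes these numbers were 1005, 98, 13 and 0. Among changes that were never called, 73 of 119 changed sign under some alternative. That number leaves out the MII genotype and interaction changes with an unadjusted p under 0.05, described above. These were never called either, and each kept its sign under every alternative. Of 400 recomputed pathway list counts, 354 were within 1.5 times the reported one. The cause of these moves was not tested. With 3 arrays a group, small differences between genotypes were not detectable, and large ones could miss the threshold too. At MII the estimates for Ube2f (5.62-fold) and Ube2n (4.55-fold) did so, and the counts of 0 do not exclude such differences.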
